A study of Homo sapiens and Mus musculus with 16 samples.

Results

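The cytosolic chaperonin CCT, also called TRiC, is built of 8 different but related subunits, and the genes of all 8 were followed here in SK-HEP-1 cells: TCP1, CCT2, CCT3, CCT4, CCT5, CCT6A, CCT7 and CCT8. They were chosen by name from the 22314 genes of the mRNA table, with earlier results of these data known, and all 8 were listed in it. The attention given to CCT3 and CCT7 was chosen by measured values, since both were listed at 0 in 2T alone, and their zeros are given as a description. CCT is a pair of stacked rings that takes up newly made proteins, closes over them and releases them folded at the cost of ATP. Actin and tubulin are its best known clients, and several cell cycle and signalling proteins with WD repeats also depend on it. Prefoldin hands such clients over to the ring, phosducin-like proteins act on it as cofactors, and every ring needs each subunit once.

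SK-HEP-1, an established human line labelled as liver cells, received DMSO alone (U, untreated) or 0.5 mg/ml AcFBE (T, treated), an ethanol extract of Antrodia cinnamomea fruiting bodies dissolved in DMSO, for 2 or 4 h. The extract is a crude mixture, and all cells received DMSO. Polyadenylated RNA was sequenced from 1 library per condition (2U, 2T, 4U and 4T), so no value below has a replicate, an error or a test, and a difference between libraries cannot be set against the spread between cultures. The question put to these libraries was which transcripts differ early after the extract. The other 12 libraries of the series hold miRNAs and were not used here. Levels are FPKM (fragments per kilobase of transcript scaled to the mapped fragments of the library), which is a level per length relative to the other mRNAs, so that fewer cells of a kind and less RNA per cell cannot be told apart. The deposited table holds neither counts nor depths. The study states read totals for these libraries, which were not used here, and no counting interval was computed.

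Of the 22314 genes, 10691 (2U), 8454 (2T), 9550 (4U) and 9773 (4T) had a level over 0. The smallest value above 0 was 0.2 FPKM in 4U and 4T, while 2656 genes in 2U and 1173 in 2T lay above 0 and below 0.2 FPKM, so that a 0 does not mean the same at both times. The study's own statistics give other gene numbers for both 2 h libraries, with more genes in 2T than this column holds above 0, so every 0 in 2T below, including those of CCT3 and CCT7, carries that doubt. Of the liver markers, ALB, TTR, APOA1 and HNF4A were listed at 0 in all 4 libraries, and the 6 liver markers summed to between 9.22 and 18.9 FPKM, mostly SERPINA1. All 5 endothelial markers and both blood markers were listed at 0 throughout, while the 4 epithelial markers, summed to between 5955 and 9693 FPKM. This sum came from KRT8 and KRT18, since CDH1 was listed at 0 throughout and EPCAM was at 0.396 FPKM in 2U, 0.244 in 2T and 0 at 4 h. A gene listed at 0 is not shown to be absent, since genes that every cell uses, such as RPL17 in 2T, were also listed at 0.

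Promoter windows of 5 subunits are shown, CCT3 and CCT7 because they were listed at 0 in 2T, and CCT2, CCT5 and CCT8 because their levels were higher with the extract at both times. CCT6A was also higher at both times. The windows run from 250 bases before the RefSeq start to 50 bases after it, read 5′ to 3′ on the gene's strand, in build GRCh38.p14. They lie at chr1:156338243-156338542 (CCT3, minus strand), chr2:73234058-73234357 (CCT7, plus strand), chr12:69585209-69585508 (CCT2, plus strand), chr5:10250287-10250586 (CCT5, plus strand) and chr21:29073599-29073898 (CCT8, minus strand). Capitals mark matches on either strand to CCAAT and GGGCGG, and to the inverted repeats GAANNTTC and TTCNNGAA, which read the same on both strands.
CCT3: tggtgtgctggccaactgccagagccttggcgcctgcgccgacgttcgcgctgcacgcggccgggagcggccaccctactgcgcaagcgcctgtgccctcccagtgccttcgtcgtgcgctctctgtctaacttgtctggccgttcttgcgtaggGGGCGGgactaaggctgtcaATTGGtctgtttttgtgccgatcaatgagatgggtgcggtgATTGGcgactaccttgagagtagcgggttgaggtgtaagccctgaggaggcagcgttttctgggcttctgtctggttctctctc
CCT7: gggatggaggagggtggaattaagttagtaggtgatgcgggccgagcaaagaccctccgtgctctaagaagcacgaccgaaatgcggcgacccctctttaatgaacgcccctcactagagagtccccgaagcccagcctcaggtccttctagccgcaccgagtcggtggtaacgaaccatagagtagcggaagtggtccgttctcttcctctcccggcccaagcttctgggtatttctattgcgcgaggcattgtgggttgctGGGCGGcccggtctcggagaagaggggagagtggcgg
CCT2: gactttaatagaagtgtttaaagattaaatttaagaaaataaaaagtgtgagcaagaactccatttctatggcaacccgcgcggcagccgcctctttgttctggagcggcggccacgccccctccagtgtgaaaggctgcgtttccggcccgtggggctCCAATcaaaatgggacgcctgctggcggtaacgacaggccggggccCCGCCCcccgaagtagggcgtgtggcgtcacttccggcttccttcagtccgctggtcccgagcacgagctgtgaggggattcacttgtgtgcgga
CCT5: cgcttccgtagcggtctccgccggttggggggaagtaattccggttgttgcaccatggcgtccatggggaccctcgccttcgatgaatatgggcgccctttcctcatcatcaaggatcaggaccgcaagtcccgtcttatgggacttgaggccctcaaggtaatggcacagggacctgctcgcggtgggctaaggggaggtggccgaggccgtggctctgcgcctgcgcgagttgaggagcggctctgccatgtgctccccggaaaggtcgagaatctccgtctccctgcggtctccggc
CCT8: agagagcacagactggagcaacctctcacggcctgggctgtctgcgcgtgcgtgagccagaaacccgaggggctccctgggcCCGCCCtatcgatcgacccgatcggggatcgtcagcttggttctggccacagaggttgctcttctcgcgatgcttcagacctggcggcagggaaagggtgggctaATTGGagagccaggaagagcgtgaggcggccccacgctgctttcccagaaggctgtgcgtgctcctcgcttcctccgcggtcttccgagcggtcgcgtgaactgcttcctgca

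RefSeq gave a window for 7 of the 8 genes, with a second window for CCT2 and for CCT4. CCAAT stood in a window of 4 of the 7 genes (TCP1, CCT2, CCT3 and CCT8) and in 34.6% of all 35116 windows, and GGGCGG in 5 of the 7 (TCP1, CCT2, CCT3, CCT7 and CCT8) and in 45% of all. GAANNTTC, an arrangement of the repeats that heat shock factors bind, was found for TCP1 (GAAGGTTC) and in the second window of CCT2 (GAAATTTC), against 6.77% of all windows. TTCNNGAA was found for CCT4 (TTCTGGAA), against 7.74% of all. None of the 7 held TATAAA, which stood in 11.5% of all windows. A subunit counts if any of its windows matches, whereas the shares are over single windows. CCT2 and CCT4 thus had more room for a match. In the CCT3 window both CCAAT matches, 75 and 34 bases before the start, lie on the opposite strand. The CCT7 window has a single capital run, which begins 13 bases after the start. The CCT5 window has no match to any of them. Before its RefSeq start it already holds a start codon followed by an open reading frame, so this start may be an alternative one. The lack of matches therefore need not describe the main promoter of CCT5, which enters the counts of 7 by this window alone. These letters are descriptions of the windows and not evidence of binding.

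The subunits were among the more abundant mRNAs of the cells. In 2U they ranged from 52.5 FPKM for TCP1 to 523 for CCT7, and each lay above 91.5% or more of the genes listed above 0. CCT7 was followed by CCT4 at 344, CCT3 at 295, CCT2 at 230, CCT5 at 177, CCT8 at 147 and CCT6A at 80.3 FPKM. In 4T the order was CCT3 at 410, CCT7 at 407, CCT5 at 395, CCT2 at 371, CCT8 at 324, CCT4 at 244, CCT6A at 113 and TCP1 at 70.8 FPKM. CCT6A and TCP1 were the lowest subunits in both and in 4U (19.1 and 23.2 FPKM), and in 2T (88.6 and 48.8 FPKM) they were the lowest of the 6 above 0. The highest subunit stood 9.97-fold above the lowest in 2U, 7.5-fold in 2T (among the 6 over 0), while the gap was 20.9-fold in 4U and 5.79-fold in 4T. Without replicates, neighbours in these orders cannot be set apart. The bar plots of the levels show the same values library by library.

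**Figure D1:**
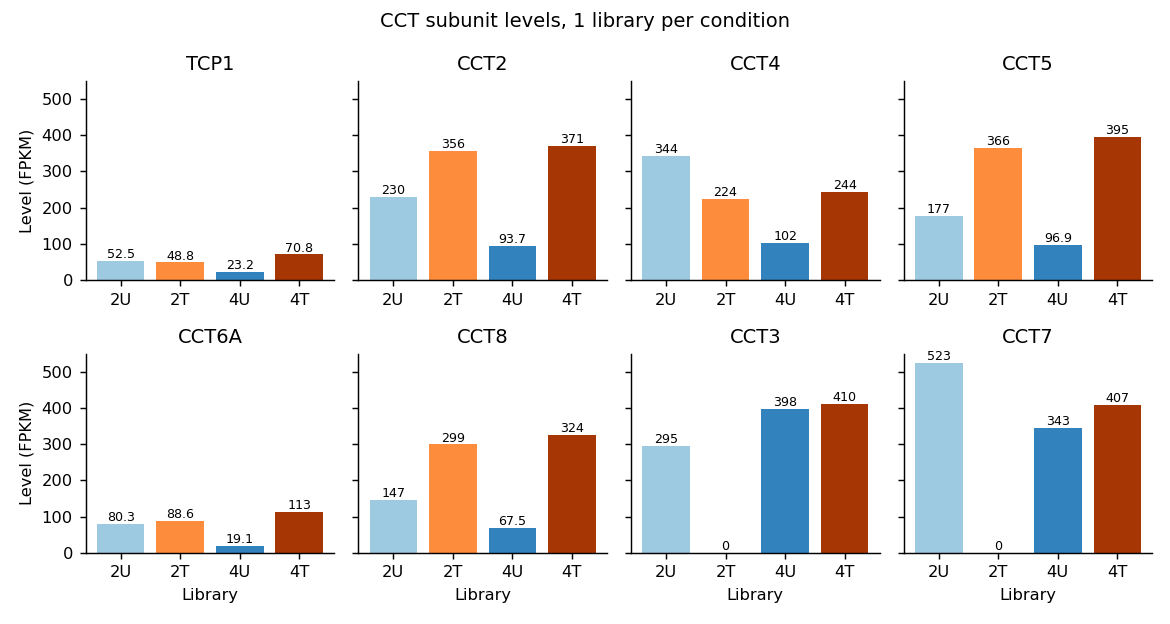
Level (FPKM, vertical axis) of each CCT subunit in the 4 mRNA libraries (2U and 4U untreated, 2T and 4T treated, after 2 or 4 h), with 1 bar per library and no error bars because each condition had 1 library. TCP1, CCT2, CCT4, CCT5, CCT6A and CCT8 have their lowest bar in 4U, whereas CCT3 and CCT7 have no bar in 2T and differ little between 4U and 4T.

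At 4 h all 8 subunits had a higher level in the treated library, and 6 of them were at least 2-fold higher: TCP1, CCT2, CCT4, CCT5, CCT6A and CCT8. At this time 12.6% of the 8651 genes above 0 in both libraries were at least 2-fold higher and 20.9% at least 2-fold lower, and among the 1779 genes with at least 10 FPKM in both the shares were 14.8% and 19%. The median log2 ratio of the 8 subunits was 1.80, against -0.18 over all genes with a ratio.

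TCP1, the alpha subunit of the ring, stood at 52.5 FPKM in 2U and 48.8 in 2T, then 23.2 in 4U and 70.8 in 4T. Its level was 3.06-fold higher in 4T than in 4U, and 4U was the low library. The gene lies on chromosome 6 of GRCh37, from 160199530 to 160210634 on the minus strand, and its transcript overlaps the end of ACAT2 on the plus strand by 615 bases. ACAT2, an acetyl-CoA acetyltransferase, was at 45.1, 56.4, 44.2 and 71.4 FPKM in 2U, 2T, 4U and 4T. Whether the counting used strand is not given in the sources used here, so reads in the shared stretch cannot be assigned between them.

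CCT2 stood at 230 FPKM in 2U and 356 in 2T, then 93.7 in 4U and 371 in 4T. It was therefore higher in the treated library at both times, 1.54-fold at 2 h and 3.96-fold at 4 h, while both treated levels were close to each other. Its gene spans 69979239 to 69995350 on the plus strand of chromosome 12, and of the 6 subunits above 0 in all libraries its pattern was the nearest to that of their sum.

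CCT5 stood at 177 FPKM in 2U and 366 in 2T, then 96.9 in 4U and 395 in 4T. CCT8 stood at 147 FPKM in 2U and 299 in 2T, then 67.5 in 4U and 324 in 4T. These were the only subunits past 2-fold at both times, with ratios of 2.07 and 2.04 at 2 h and of 4.08 and 4.8 at 4 h. The 2 h values lay close to 2-fold, at 1.05 and 1.03 on the log2 scale, and were 0.88 and 0.86 after rescaling to the same median and 0.61 and 0.59 after the GC centring described below, so neither call at 2 h held under these settings. The GC-centred value of CCT5 rests on the transcript taken for its GC content. CCT5 and CCT8 were also the pair of subunits whose patterns over the 4 libraries lay closest together, at a Euclidean distance of 0.21 on the log2 scale after each gene's mean was removed, against 1.40 for the most distant pair, CCT4 and CCT8. CCT5 lies on chromosome 5 (10250392 to 10266501, plus strand) and CCT8 on chromosome 21 (30428647 to 30445969, minus strand).

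CCT6A stood at 80.3 FPKM in 2U and 88.6 in 2T, then 19.1 in 4U and 113 in 4T. Its 5.93-fold difference between 4T and 4U was the largest of the 8, and its level in 4U the lowest value above 0 of any subunit. The gene lies on chromosome 7 (56119458 to 56131682, plus strand). Pseudogenes derived from CCT6A are listed separately and may share reads with it. CCT6P1 was at 4.12, 7.74, 2.83 and 9.27 FPKM in 2U, 2T, 4U and 4T, and CCT6P3 at 4.72, 6.34, 2.38 and 8.58, so that both were also lowest in 4U and highest in 4T.

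CCT4 had the lowest ratio of the 6 subunits at 2 h. Its level was 344 FPKM in 2U and 224 in 2T, then 102 in 4U and 244 in 4T, so that the treated library was the lower at 2 h (ratio 0.651) and the higher at 4 h (2.4-fold). It made up 33.3% of the summed level of the 6 subunits in 2U and 25.3% in 4U, but 16.2% in 2T and 16.1% in 4T. CCT4 lies on chromosome 2 (62095220 to 62115791, minus strand).

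CCT3 and CCT7 did not share the difference at 4 h in the levels as deposited. After the GC centring described below, CCT7 (0.56 on the log2 scale) lay above TCP1 (0.54) and CCT4 (0.19). CCT3 (-0.26) was then still the lowest subunit. CCT3 stood at 295 FPKM in 2U and 0 in 2T, then 398 in 4U and 410 in 4T, and CCT7 at 523, 0, 343 and 407. Their 4T levels were 1.03-fold and 1.19-fold those in 4U, while both were listed at 0 in 2T. In the 4U library they held 64.8% of the summed level of the 8 subunits, against 44.2% in 2U and 35% in 4T. CCT3 lies on chromosome 1 (156278759 to 156308083, minus strand) and CCT7 on chromosome 2 (73461436 to 73480133, plus strand).

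At 2 h the members differed less and in both directions. Of the 6 subunits with a ratio, 2 were at least 2-fold higher in 2T and none at least 2-fold lower, where 23.4% and 18.4% of the 8448 genes with a ratio were higher and lower by this fold, and 12.5% and 15.1% of the 1735 genes with at least 10 FPKM in both. The log2 ratios ran from -0.62 for CCT4 through -0.11 for TCP1, 0.14 for CCT6A and 0.63 for CCT2 to 1.03 for CCT8 and 1.05 for CCT5, with a median of 0.38, against 0.07 for all genes.

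Between the untreated libraries, 5 of the 8 subunits were at least 2-fold lower at 4 h than at 2 h. The doubt stated above about the 2 h libraries applies to this comparison. At least 2-fold lower levels were found for 7.27% of the 9021 genes with a ratio and at least 2-fold higher levels for 34.5%, and for 8.08% and 9.73% of the 1881 genes with at least 10 FPKM in both. CCT6A was 4.21-fold lower in 4U than in 2U, CCT4 3.37-fold, CCT2 2.46-fold, TCP1 2.27-fold and CCT8 2.17-fold. CCT5 was 1.82-fold and CCT7 1.52-fold lower, and CCT3 was 1.35-fold higher. The median log2 ratio of the 8 was -1.15 and that of all genes with a ratio 0.50. Over the 1881 genes with at least 10 FPKM in both, as all 8 subunits had, it was -0.05.

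Between the treated libraries none of the 6 subunits with a ratio passed 2-fold. The log2 ratios of 4T to 2T ran from 0.06 for CCT2 to 0.54 for TCP1, with a median of 0.12. At least 2-fold higher and lower levels were found for 16.1% and 4.27% of the 8034 genes with a ratio, but for 0.587% and 0.908% of the 1873 genes with at least 10 FPKM in both, so few genes at the members' level differed between these libraries. The summed level of the 6 subunits above 0 in all libraries was 1030 FPKM in 2U and 1382 in 2T, then 402 in 4U and 1519 in 4T. That sum was 3.78-fold higher in 4T than in 4U and 1.34-fold higher in 2T than in 2U, and 2.56-fold higher in 2U than in 4U. The comparisons share libraries (4U enters both the comparison at 4 h and that of the untreated cells), so a low value in 4U moves both.

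**Figure D2:**
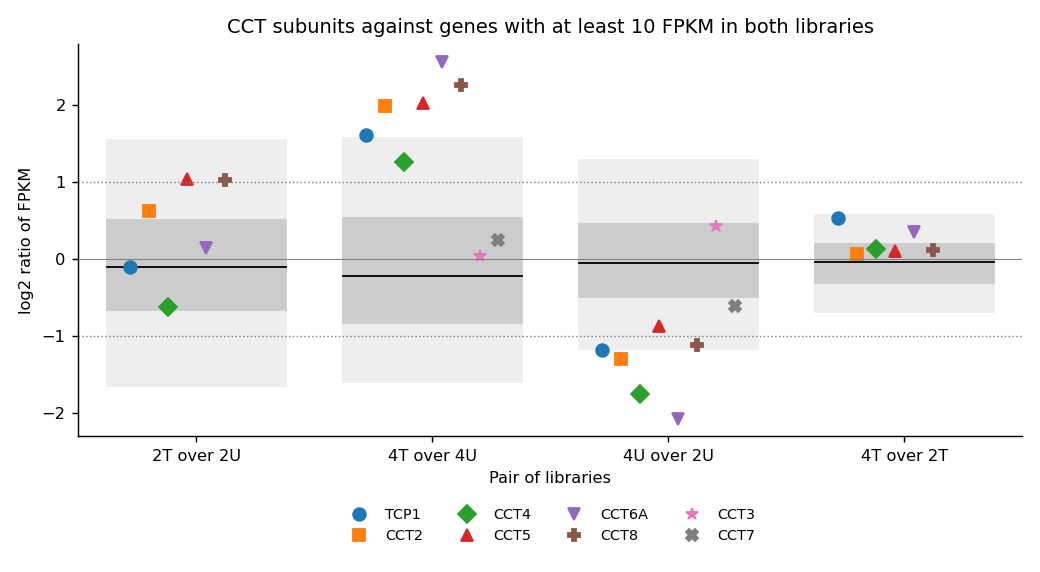
Log2 ratio of FPKM (vertical axis) of each CCT subunit for 4 pairs of libraries (horizontal axis), with 1 symbol per subunit. Light grey boxes span percentiles 5 to 95 and dark grey boxes the middle quartiles of genes with at least 10 FPKM in both libraries, black lines are their medians and dotted lines mark 2-fold, and 6 subunits lie past 2-fold for 4T over 4U and 5 for 4U over 2U.

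The GC content of the transcripts moved with the ratios. Among 1720 genes with at least 10 FPKM in both 4 h libraries and a GC value, Spearman's rho between GC content and the log2 ratio of 4T to 4U was -0.75, and for 2T to 2U it was -0.27 over 1688 genes. It was 0.30 for 4U to 2U and -0.61 for 4T to 2T. They describe trends over genes of the same libraries and have no test.

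The 6 subunits that were at least 2-fold higher in 4T all had transcripts of low GC content, from 41.5% for CCT8 to 44.5% for CCT5, whereas CCT3 was at 50.6% and CCT7 at 51.6%. Over the 1520 genes that had a GC value and reached 10 FPKM throughout, the median was 53.1%. With the 1720 genes of the comparison at 4 h divided by GC content into 5 groups of equal size, all 6 belonged to the group with the lowest GC content, in which 54.1% of 344 genes were at least 2-fold higher in 4T and the median log2 ratio was 1.08. CCT3 belonged to the next group, with 16% of genes at least 2-fold higher and a median of 0.30, and CCT7 to the middle group, with 3.2% and -0.31. The value of CCT5 depends on the transcript taken, since the median over its coding transcripts was 48.7%.

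After the median of each gene's own GC group was subtracted, a setting chosen after the data were seen, 2 of the 8 subunits stayed at least 2-fold higher at 4 h (CCT6A at 1.49 and CCT8 at 1.19 on the log2 scale). The others were at 0.95 for CCT5, 0.91 for CCT2, 0.56 for CCT7, 0.54 for TCP1, 0.19 for CCT4 and -0.26 for CCT3. CCT5 was placed by its canonical transcript. By the 48.7% median of its coding transcripts it would belong to the next group, with a median of 0.30. Its centred value and the count of 2 therefore rest on that choice. Between the untreated libraries CCT6A (-1.76) and CCT4 (-1.43) stayed at least 2-fold lower. The part of GC content in the result was not tested. The plots of ratio against GC content show the members among the other genes.

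**Figure D3:**
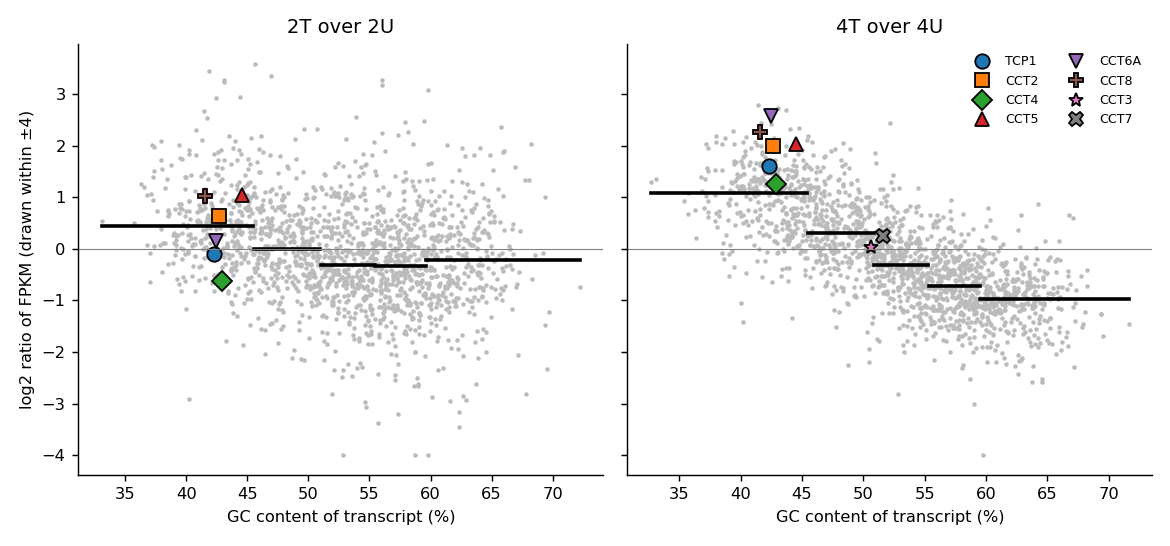
Log2 ratio of FPKM (vertical axis, values beyond 4 drawn at the limit) against GC content of the transcript (percent, horizontal axis) for genes with at least 10 FPKM in both libraries, at 2 h (left) and 4 h (right). Grey points are genes, black bars the median of each of 5 groups of genes by GC content and coloured symbols the CCT subunits, and at 4 h the medians descend from 1.08 to -0.98, and the 6 subunits of low GC content lie at the upper left.

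CCT3 and CCT7 were the only subunits listed at 0 in any library. Of the 8413 genes above 0 in 2U, 4U and 4T, 8.74% were listed at 0 in 2T. With at least 10 FPKM in the other 3 libraries the share was 1.98% (32 of 1614 genes), and with at least 100 FPKM it was 2.16% (10 of 463). No gene with at least 10 FPKM in the other 3 libraries was listed at 0 in 2U alone, in 4U alone or in 4T alone, out of 1676, 1622 and 1655 genes. The zeros of abundant genes in a single library were thus found in 2T and not in the others. Zeros shared by both 2 h libraries were found too. Of the 1779 genes with at least 10 FPKM in 4U and 4T, 43 were listed at 0 in both 2U and 2T. The 6 other subunits were at 48.8 FPKM or more in 2T, so no subunit lay between them and 0.

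**Figure D4:**
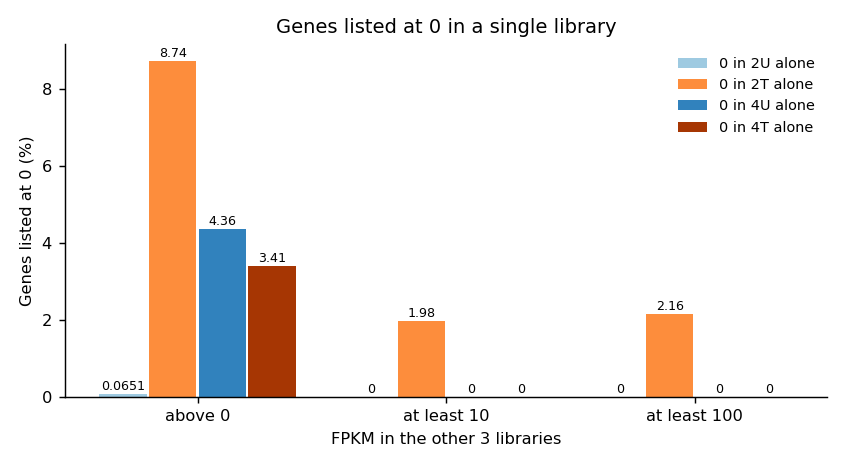
Percent of genes listed at 0 in 1 library alone (vertical axis), for genes above 0, at least 10 or at least 100 FPKM in the other 3 libraries (horizontal axis), with 1 bar per library. At 10 and 100 FPKM only the 2T bars, at 1.98% and 2.16%, are above 0.

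Ordered by the lowest of the other 3 values, CCT7 ranked 2 and CCT3 ranked 3 among the 735 genes listed at 0 in 2T alone. EEF1D, a subunit of the translation elongation factor, ranked before them with 885 FPKM in 2U, 596 in 4U and 410 in 4T. After them stood GNAS (a G protein alpha subunit), SPCS1 (signal peptidase), CLTA (clathrin light chain), FDPS (isoprenoid synthesis), RPL17 and MRPS12 (ribosomal proteins of the cytosol and of mitochondria) and VDAC2 (a channel of the outer mitochondrial membrane), which was at 109, 107 and 135 FPKM in 2U, 4U and 4T. In a table of FPKM an exact 0 can be a failed estimate, so no fold is given against it, and whether CCT3 and CCT7 mRNA was lost from the cells at 2 h cannot be read from it.

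Of the 29 genes with a position among the 32, the transcripts of 11 (37.9%) overlapped one of another gene of the table, against 166 (10.8%) of 1539 genes above 0 in 2T, a difference that was not tested. CCT3 and CCT7 were not among the 11. The nearest gene above 0 in any library lay 234 bases from CCT3 (C1orf182, at 0.62, 0.57, 2.13 and 0 FPKM in 2U, 2T, 4U and 4T) and 1069 bases from CCT7 (C2orf7, at 1.69, 29.7, 20.7 and 32.9 FPKM). The genes listed at 0 had a median GC content of 55%, close to the 53.1% of those above 0 in 2T.

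By the distance used above, over the 1562 genes that reached 10 FPKM throughout, the pattern nearest to the summed level of the 6 subunits was that of LOC146880 (distance 0.12), followed by CCT2 itself (0.15), which is part of the sum. Next came ALG8, a glucosyltransferase of N-glycan assembly (0.20, at 40.6, 53.6, 18.5 and 60.6 FPKM in 2U, 2T, 4U and 4T), HMGN1, a nucleosome-binding protein (0.20), and ATG3, an enzyme of autophagy (0.23). The median distance over all these genes was 1.83. CCT8 ranked 36 at 0.50, CCT5 37 at 0.51, TCP1 42 at 0.52, CCT6A 50 at 0.56 and CCT4 161 at 0.89. These likenesses rest on 4 libraries.

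The partners of the ring were described from lists chosen with earlier results known. Of the 6 prefoldin subunits, which deliver unfolded actin and tubulin, 3 were at least 2-fold higher in 4T than in 4U and none lower. At 2 h 1 of 5 was higher. Over all genes with a ratio, 12.6% were higher by this fold at 4 h and 23.4% at 2 h. The 3 were low in 4U, with PFDN2 at 0.264, PFDN6 at 2.63 and VBP1 at 5.41 FPKM. The more abundant PFDN1 and PFDN5 had log2 ratios of 0.87 and 0.16 at 4 h. PFDN5 was the most abundant, at 825, 499, 512 and 572 FPKM in 2U, 2T, 4U and 4T. PFDN2 stood at 1.15 FPKM in 2U and 0 in 2T, then 0.264 in 4U and 90.2 in 4T, so that it too was listed at 0 in 2T alone. VBP1 was at 5.09, 8.36, 5.41 and 17.8 FPKM in the same order. The prefoldin median log2 ratio was 1.22 at 4 h and its median GC content 49.8%.

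The phosducin-like cofactors were low, and none of the 3 with a ratio passed 2-fold at either time. The highest was TXNDC9, at 1.63, 2.88, 3.05 and 5.96 FPKM in 2U, 2T, 4U and 4T, while PDCL2 was listed at 0 throughout. The CCT paralogs CCT6B and CCT8L2 and the chaperonin-like BBS10 and BBS12 were also listed at 0 in all 4 libraries, and MKKS, which is related to them, lay between 1.64 and 3.19 FPKM. Of the CCT genes in the table, those above 0 were therefore the 8 members and the CCT6A pseudogenes.

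The mitochondrial chaperonin is a separate folding machine of related design. HSPD1, its ring protein, stood at 11.2 FPKM in 2U and 64.7 in 2T, then 15.9 in 4U and 58.5 in 4T. HSPE1, its lid, was at 32.7, 39.1, 22.1 and 53.2 FPKM. Both were at least 2-fold higher in 4T than in 4U, HSPD1 alone passed 2-fold at 2 h, and their median GC content was 40.5%. Over all genes with a ratio, 12.6% were higher by this fold at 4 h and 23.4% at 2 h.

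The clients differed otherwise. Of 12 actin and tubulin genes in the table none was at least 2-fold higher and 1, TUBB3, at least 2-fold lower in 4T than in 4U, with a median log2 ratio of -0.19. Over all genes with a ratio the shares were 12.6% and 20.9%. TUBA1B, an alpha-tubulin, stood at 9430 FPKM in 2U and 7105 in 2T, then 7865 in 4U and 6669 in 4T, and ACTB, beta-actin, at 653, 2305, 2198 and 1827. At 2 h ACTB and ACTG1 were at least 2-fold higher in the treated library, through a low level in 2U. Tubulin and actin genes belong to families with near-identical copies, so their shares of reads are uncertain. TUBG1 was listed at 0 in both 2 h libraries, and its level was 151 FPKM in 4U against 99.3 in 4T. The median GC content of these genes was 55.2%.

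Of the other clients, 5 of the 10 with a ratio were at least 2-fold lower in 4T than in 4U and none higher, with a median log2 ratio of -1.03. Over all genes with a ratio at 4 h, 20.9% were lower by this fold and 12.6% higher. GNB2, a G protein beta subunit, was at 33.1, 65.6, 150 and 42.1 FPKM in 2U, 2T, 4U and 4T, and CDC20, an activator of the anaphase-promoting complex, at 646, 424, 542 and 366. At 2 h 4 of 11 were at least 2-fold higher and 1 lower, against 23.4% and 18.4% of all genes with a ratio. The median GC content of these clients was 57.8%, the highest of these lists. In the GC group that holds this value, 107 of 344 genes were at least 2-fold lower in 4T than in 4U and 0 higher. Of the 6 tubulin folding cofactors, which receive tubulin after the ring, 1 was higher (TBCE) and 1 lower (TBCD) by 2-fold at 4 h. TBCA was at 18.4, 61.8, 41.2 and 74.8 FPKM in 2U, 2T, 4U and 4T, and ARL2 was listed at 0 in both 2 h libraries.

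The cytosolic chaperones HSP70 and HSP90 hold newly made proteins before and beside the ring. Of the 16 genes of this list with a ratio, 5 were at least 2-fold higher and 5 at least 2-fold lower in 4T than in 4U. Over all genes with a ratio at 4 h the shares were 12.6% and 20.9%. HSPA8, the constitutive form of HSP70, stood at 416 FPKM in 2U and 1850 in 2T, then 855 in 4U and 2148 in 4T. HSPA1A, a heat-inducible form, was at 2347, 21.1, 473 and 11.9 FPKM, and DNAJB1, a cochaperone, at 2820, 72.6, 596 and 84.6. HSPA1A and HSPA1B are near-identical copies, so their reads cannot be told apart with certainty. HSP90AB1, at 958, 610, 305 and 632 FPKM, had its lowest level in 4U, as 6 of the subunits did, and HSP90AA1, at 109, 141, 36 and 111 FPKM, did so too. Of the 14 genes of the proteasome core, another ring complex, 5 were at least 2-fold higher at 4 h and none lower, with a median log2 ratio of 0.87 and a median GC content of 46%. All 5 were PSMA genes. PSMA2 and PSMA3, the latter at 52.9, 142, 37.4 and 168 FPKM, were also lowest in 4U. PSMA4, PSMA5 and PSMA6 were instead lowest in 2U, at 18.3, 52.5 and 70.4 FPKM.

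**Figure D5:**
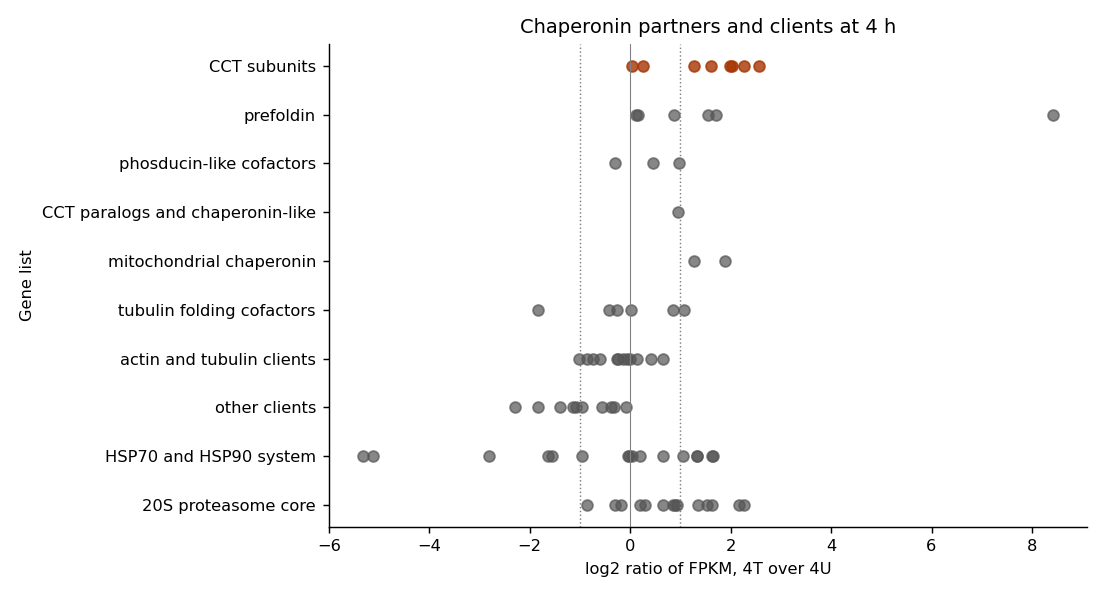
Log2 ratio of FPKM, 4T over 4U (horizontal axis), for each gene with a ratio in the CCT subunits and 9 related lists (vertical axis), with 1 point per gene and dotted lines at 2-fold. The CCT subunits lie between 0.04 and 2.57 and the other clients between -2.29 and -0.08. PFDN2, at 8.42 through a level of 0.264 FPKM in 4U, is the point farthest to the right.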

How the data were processed

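mRNA of SK-HEP-1 cells was analysed in 4 libraries, 1 per condition, from SOLiD 3 reads. The authors deposited FPKM per gene, which the submitters' processing notes credit to TopHat and Cufflinks on hg19 (GRCh37), without counts, and nothing was rescaled in the main values. Log2 ratios used no pseudocount, over genes above 0 in both libraries, and 2-fold was taken as a call. Transcript positions, lengths and GC content came from GENCODE 44 lifted to GRCh37 (1 canonical transcript per gene, 19464 of 22314 genes matched by symbol or synonym), and promoter windows from RefSeq (GRCh38.p14). Calculations used Python 3.11.15, numpy 2.4.6, pandas 2.3.3 and matplotlib 3.10.9, and the ratio code was tested on simulated data. No p-values were computed, since no condition was replicated. Alternatives covered scaling, pseudocounts, minimum levels and GC content.

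The members and lists were chosen with earlier results of these data known. Named beside the 8 members were a few genes of each list, the 10 genes listed at 0 in 2T alone with the highest minimum in the other libraries, and the 5 genes (at least 10 FPKM throughout) nearest to the summed level of the 6 subunits above 0 in all libraries. C1orf182, C2orf7, ACAT2 and the pseudogenes were named after their values were seen. The miRNA tables were not used here.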

Additional observations from a re-analysis of the deposited data

Results flagged for a closer look

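The ratios of TCP1 and CCT4 had opposite signs at the 2 times, though TCP1 hardly differed at 2 h. The log2 ratio of treated to untreated was -0.11 at 2 h and 1.61 at 4 h for TCP1, a difference of 1.72, and -0.62 and 1.26 for CCT4, a difference of 1.88. Each ratio is between single libraries, so the difference between the times was not tested. The 2 h value of TCP1 was -0.05 after rescaling to the same total and -0.27 after rescaling to the same median. For both genes the level in 4U (23.2 and 102 FPKM) was the lowest of the 4, and after the median of the genes' own GC group was subtracted the ratios still had opposite signs, at -0.55 and 0.54 for TCP1 and at -1.06 and 0.19 for CCT4.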

How the results depend on the processing

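No test was made, so there was no paired fit of the treated and untreated pairs either, and with 1 library per condition no replicate could be left out. A shift below 0.1 on the log2 scale was taken as no move. At 4 h the median of the members (1.80) was 2.09 after rescaling to the same median and 2.08 to the same upper quartile, with 6 members at least 2-fold higher in all scalings, and 0.73 with 2 members after subtracting the median of each GC group, which was added after the data were seen. The summed level moved from 1.92 to 2.21 and 2.20. The GC groups used canonical transcripts, and the group of CCT5 depends on that choice. At 2 h the median (0.38) was 0.22 with 0 members at least 2-fold higher after rescaling to the same median (summed level 0.26 in place of 0.42). It was 0.018 with log2(FPKM + 1) and 0.018 with log2(FPKM + 0.1), each with 2 members (CCT3 and CCT7, listed at 0) at least 2-fold lower, and -0.057, with 0 members higher and 1 lower, after GC centring. For 4U over 2U the median (-1.15) was -1.49, -1.29 and -0.83 under the same median, upper quartile and GC centring, with 6, 6 and 2 members at least 2-fold lower in place of 5, and the summed level (-1.36) was -1.70 and -1.50. For 4T over 2T the median (0.12) was 0.24, 0.28 and -0.046 in that order, and 0.24 with either pseudocount, each with 2 members (CCT3 and CCT7, listed at 0 in 2T) at least 2-fold higher. The summed level (0.14) was 0.25 and 0.30. The share of genes at 0 in 2T alone was 8.74% without a minimum and 1.94%, 1.98% and 2.16% at 1, 10 and 30 FPKM. In 79 repeats of these results, the counts of 6 among them, a median or summed level moved by less than 0.1 and a count stayed within 1.5 times. In 34 others the result was classed as moved. Some of the 79 could not move. No subunit above 0 lay below 19.1 FPKM, so minimum levels of 1 or 10 FPKM left the members as they were. Counting values below 0.2 or 1 FPKM as 0 likewise changed no subunit. The deposited table gives no counts, and no limit for a 0 was computed.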
